A study of Rattus norvegicus with 10 samples.

Results

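Cxcl1, Ccl7 and Il6, 2 chemokine genes and a cytokine gene, were described here in the aortas of rats given lipopolysaccharide (LPS), the bacterial cell wall component used to induce endotoxaemia. They are 3 of the 38804 probes of a single-colour Agilent array for rat mRNAs and lncRNAs. For each gene, 1 probe with 1 spot per array was paired with its symbol in the supplementary table of the study (ASRN6AP1B100051090V3 for Cxcl1, ASRN6AP1B100018098V3 for Ccl7 and ASRN6AP1B100044615V3 for Il6). Most probes have no gene name here, so further probes of these genes may be on the array. The genes were chosen because they stood among the mRNAs with the largest increase in LPS aorta, so the LPS and control values below are a description of that difference. Calls of these genes in the fit over all probes are given only to place them and support nothing. All animals were male Wistar rats of 8 weeks. The LPS group received LPS intraperitoneally at 10 mg/kg in saline, and the control group received saline alone. The aortas were taken at 24 h, after anaesthesia with ketamine and xylazine and CO2 euthanasia in both groups, and 5 arrays were hybridised per group. The number that the labels give each array is used here as the number of the rat. The tissue is given as blood vessel in the sample labels. It could not be checked against vascular marker genes, because no endothelial or smooth muscle gene is among the probes named here.

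The arrays differed in brightness and in scan date. The 75th percentile of the intensity of an array ranged from 190.2 to 453.7, and 79.6% to 92.6% of probes were called well above background, the term of the feature extraction software for a spot clearly brighter than its surroundings. No spot was saturated. Arrays whose file headers give the same scan date are called a scan here. Scan 1 held 4 control arrays, scan 2 held 3 LPS arrays and the array of control rat 20, and scan 3 held 2 LPS arrays. Over 31193 spots, the arrays of LPS rats 1 and 3 differed by 0.984 times the squared difference that the spot errors give, and those of control rats 15 and 17 by 0.778 times. The other 43 pairs gave 4.01 to 13.0 times. Within both pairs the difference was smaller than the spot error, so the 2 arrays of each pair were combined into a mean that counts as 1 sample. This gave 4 samples per group. Whether the arrays of a pair came from separate rats could not be settled, since the study states 5 rats per group. Each SD and n = 4 below is therefore over these 4 samples, and "rats 1 and 3" or "rats 15 and 17" gives the array numbers of a pair.

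Cxcl1 encodes a chemokine of the CXC family (also called CINC-1 or Gro1 in the rat) that attracts neutrophils through the receptor Cxcr2. Ccl7 encodes a chemokine of the CC family (monocyte chemoattractant protein 3) that attracts monocytes through Ccr1, Ccr2 and Ccr3. Il6 encodes interleukin-6, a cytokine that binds its receptor together with the shared subunit Il6st, activates Stat3 and drives the acute-phase response of the liver. LPS is sensed by Tlr4 with Cd14 and Ly96. The signal reaches NF-κB and AP-1, which switch on chemokine and cytokine genes in macrophages, endothelial cells, smooth muscle cells and fibroblasts of the vessel wall.

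The promoters are shown because the 3 genes were all higher after LPS and are known to respond to it. The 250 bases before each gene start were taken from RefSeq on GRCr8, and all 3 genes were matched by symbol. Both strands were searched for the NF-κB consensus, an AP-1 pattern (TGANTCA), C/EBP (TTGCNNAA), the cAMP response element (TGACGTCA), the STAT element (TTCNNNGAA) and the TATA box (TATAAA). The AP-1 pattern leaves its middle base open and is looser than the AP-1 consensus. Matches are in capitals, and each sequence runs 5′ to 3′ towards its gene.
Cxcl1, GRCr8 chr14:17479322-17479571, minus strand: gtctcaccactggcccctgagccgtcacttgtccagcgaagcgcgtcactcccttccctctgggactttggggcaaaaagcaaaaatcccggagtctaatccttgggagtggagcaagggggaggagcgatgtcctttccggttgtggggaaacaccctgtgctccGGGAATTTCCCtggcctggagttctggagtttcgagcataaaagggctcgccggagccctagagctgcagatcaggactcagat
Ccl7, GRCr8 chr10:67513845-67514094, plus strand: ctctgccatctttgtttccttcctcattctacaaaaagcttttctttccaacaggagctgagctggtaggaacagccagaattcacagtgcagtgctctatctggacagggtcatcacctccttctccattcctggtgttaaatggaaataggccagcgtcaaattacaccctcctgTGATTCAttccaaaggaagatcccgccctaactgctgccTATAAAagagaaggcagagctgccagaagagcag
Il6, GRCr8 chr4:5894576-5894825, minus strand: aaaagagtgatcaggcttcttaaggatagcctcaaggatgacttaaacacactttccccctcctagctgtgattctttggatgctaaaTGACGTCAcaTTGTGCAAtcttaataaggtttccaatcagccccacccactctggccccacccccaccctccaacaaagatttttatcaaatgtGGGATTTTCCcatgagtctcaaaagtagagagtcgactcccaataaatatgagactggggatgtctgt

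The Cxcl1 promoter held an NF-κB match 84 to 75 bases before the start, and a second one on the opposite strand, shifted by 1 base, overlapped it. The Il6 promoter held an NF-κB match at 68 to 59 bases. It also held a cAMP response element at 162 to 155 bases and a C/EBP match at 152 to 145 bases on the opposite strand. In the Ccl7 promoter the loose AP-1 pattern was matched at 73 to 67 bases by TGATTCA, with T at the open middle base. The letters of the TATA box stood at 34 to 29 bases, and the NF-κB consensus was not found in this window. Of 33469 rat promoters of the same length, 3.54% held the NF-κB consensus, 6.34% the loose AP-1 pattern and 9.22% C/EBP. The cAMP response element was held by 1.59%, the STAT element by 7.67% and the TATA box by 12.9%. None of the 3 windows held the STAT letters. These matches describe the sequence, and factor binding was not measured. In the annotation, Cxcl1 on chromosome 14 lies beside Cxcl2, and Ccl7 on chromosome 10 lies between Ccl2 and Ccl11, whereas the nearest protein-coding genes to Il6 on chromosome 4 are Ralbp1l3 and Dnajb6. The files name no probe of these neighbouring genes, and their levels were not analysed here.

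Cxcl1 was bright on every LPS array and measurable on every control array. Its background-corrected intensity was 19117 in LPS rat 1, 11612 in rat 3, 12591 in rat 5, 10846 in rat 6 and 25420 in rat 7. In the control rats it was 100.05 in rat 15, 119.5 in rat 16, 112.8 in rat 17, 57.0 in rat 18 and 304.4 in rat 20. The dimmest LPS array was far above the brightest control array, and rat 20 was the highest of the controls. The spot was well above background on all 10 arrays, with a spot error of at most 10.2% of its intensity. On the log2 scale relative to the 75th percentile of the array, the LPS samples had a Cxcl1 level of 5.60 ± 0.43 (SD, n = 4), against -1.06 ± 0.65 (SD, n = 4) after saline. The log2 difference was 6.67 (standard error 0.39), a 102-fold higher geometric mean. The lowest LPS sample stood 5.59 above the highest control sample on this scale.

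Ccl7 had a narrow spread in the LPS samples and a wide one in the control samples. Its background-corrected intensity was 18640 in LPS rat 1, 11771 in rat 3, 11268 in rat 5, 16608 in rat 6 and 21056 in rat 7. The control intensities were 62.7 in rat 15, 129.1 in rat 16, 68.2 in rat 17, 88.0 in rat 18 and 519.3 in rat 20. The groups did not overlap, and rat 20 was again the highest control. The spot was well above background on all 10 arrays, with errors of at most 10.3%. The log2 level of Ccl7 on the same scale averaged 5.65 ± 0.25 (SD, n = 4) with LPS and -0.86 ± 1.04 (SD, n = 4) with saline. The log2 difference was 6.51 (standard error 0.54), or 91.1-fold. From lowest to highest, the control samples spanned 2.47 log2 units and those with LPS 0.55.

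The named Il6 probe was at the edge of detection in the control aortas. The background-corrected intensity was 817.4 in LPS rat 1, 482.9 in rat 3, 668.7 in rat 5, 497.0 in rat 6 and 1359 in rat 7. The control intensities were 5.19 in rat 15, 5.35 in rat 16, 6.90 in rat 17, 2.32 in rat 18 and 21.3 in rat 20. All LPS arrays were above all control arrays, and the spot passed as well above background on all LPS arrays but on only 2 of 5 control arrays, numbers 17 and 20. Arrays 15 and 17, of which only 17 passed, count as 1 sample. In rat 18 the spot error was 51.8% of the intensity, and in rat 20 it was 14.2%. Before correction, the median pixel of the control spots read 27 to 47 against a local background of 15 to 16. Il6 had a mean log2 level of 1.24 ± 0.58 (SD, n = 4) with LPS and of -5.33 ± 0.91 (SD, n = 4) with saline, again relative to the 75th percentile. The log2 difference was 6.57 (standard error 0.54), or 95-fold, a value that rests on control spots near background. When the control values not well above background were raised to the lowest well-above-background intensity of their array, which lay between 5.08 and 6.21 on the arrays concerned, the difference was 6.22, or 74.5-fold.

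**Figure D1:**
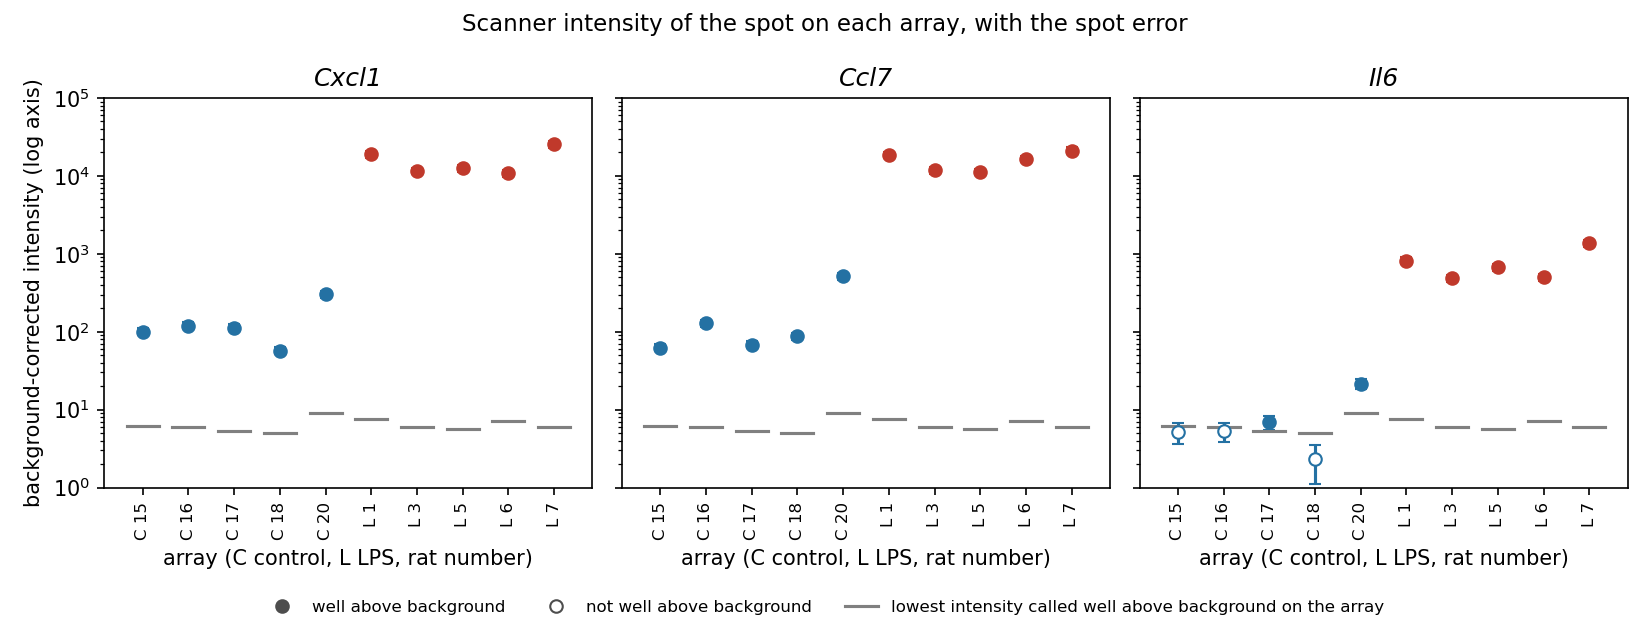
Background-corrected intensity (log axis) of the Cxcl1, Ccl7 and Il6 spots on each of the 10 arrays, with the spot error as bars and the lowest intensity called well above background on that array as a grey line. The Cxcl1 and Ccl7 spots lie above the grey line on every array, whereas the Il6 spots of control rats 15, 16 and 18 are open symbols, not well above background. Intensities of different probes are not comparable with each other.

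The log2 differences were 6.67 for Cxcl1, 6.57 for Il6 and 6.51 for Ccl7, where the value of Il6 rests on control spots near background. In a bulk aorta, more cells that express a gene and more mRNA per cell cannot be told apart. Among the 33702 mRNA and lncRNA probes well above background on at least 5 arrays, Cxcl1 ranked 3 and Ccl7 ranked 5 from the top. Il6 stood between them with its measured control values, a place that the raised control values above (6.22) do not keep. The median difference over all these probes was 0.09, and 6 of them had a difference above 6. In limma, 213 probes were called higher in LPS (Benjamini-Hochberg p under 0.05 together with over 1.5-fold), which is 0.632% of the probes tested, and all 3 genes were among them. With the scan as a block over the same 8 samples, 3 probes were called higher and none of the 3 genes was among them. Without the block, calls of lower probes made up 0.0593%. In 4.49% of the tested probes, every LPS sample was above every control sample, as it was for the 3 genes. Since the genes were picked from this contrast, nothing is read from either count.

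**Figure D2:**
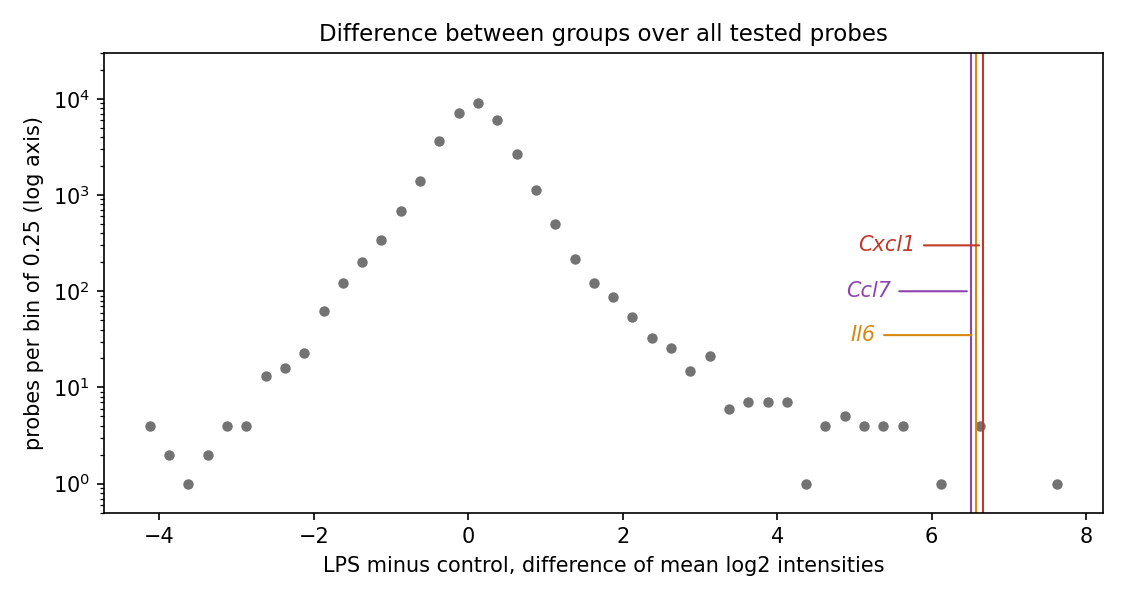
Number of tested probes (log axis) in each bin of 0.25 of the difference between mean log2 intensities, LPS minus control, over 33702 probes. The probes centre near 0.09, and the vertical lines of Ccl7, Il6 and Cxcl1 at 6.51, 6.57 and 6.67 lie at the right edge.

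The 2 arrays averaged as LPS rats 1 and 3 differed by 0.20 for Cxcl1, 0.14 for Ccl7 and 0.24 for Il6 on the log2 scale. The 2 arrays of control rats 15 and 17 differed by 0.07, 0.13 and -0.16. Across the 4 LPS samples, the values spanned 0.91 for Cxcl1, 0.55 for Ccl7 and 1.15 for Il6, and across control samples 1.40, 2.47 and 2.19.

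LPS rat 7 had the highest level of all 3 genes in its group. This order depended on the scaling. With quantile normalisation, the mean of rats 1 and 3 was the highest for Cxcl1 and Ccl7, and rat 7 was the lowest for Ccl7. The order of the control samples ran from rat 20 through rat 16 and the mean of rats 15 and 17 to rat 18 for Cxcl1, and from rat 20 through rats 16 and 18 to the mean of rats 15 and 17 for Ccl7. Both orders were the same with quantile normalisation, with normexp at an offset of 50 and in the processed values of the authors. For Il6 no order is given below rat 20, since arrays 15, 16 and 18 were not well above background, and with normexp rat 20 itself became the lowest control.

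**Figure D3:**
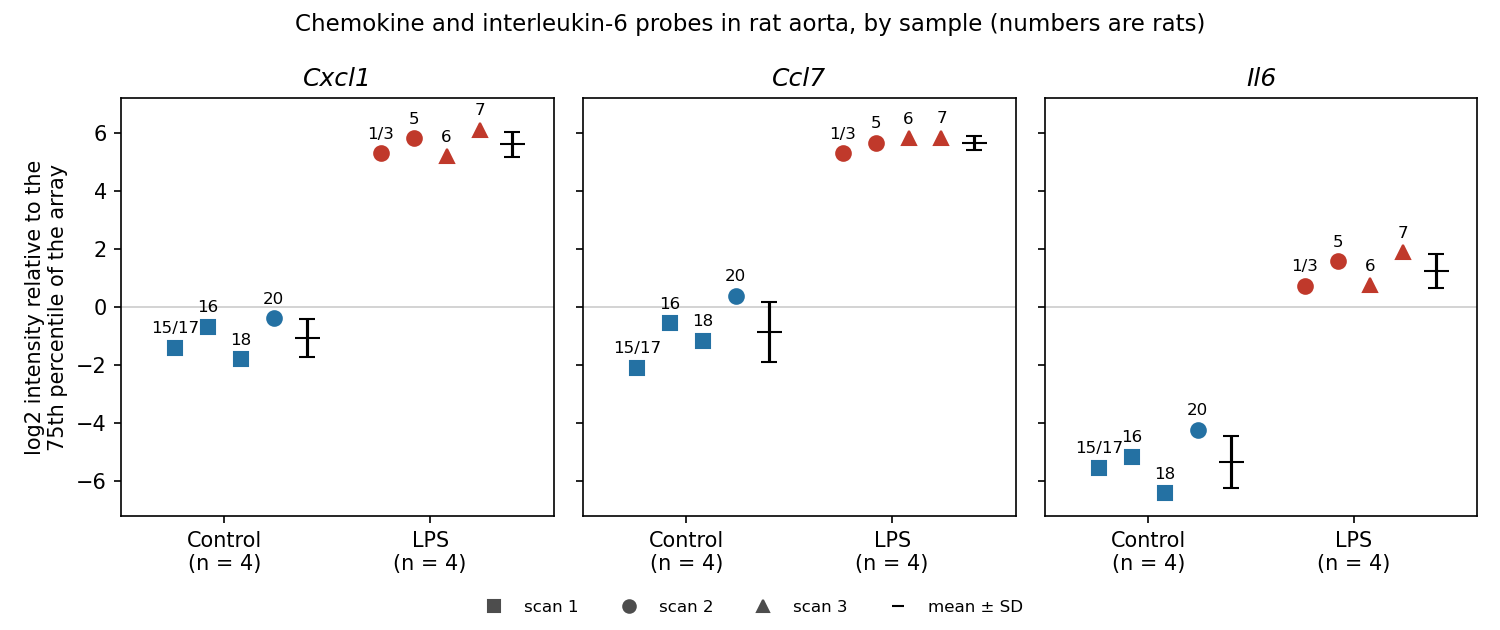
Log2 intensity relative to the 75th percentile of the array for each sample, with rat numbers and symbols for the scan. The mean ± SD of the 4 samples of each group is also shown. No LPS sample overlaps a control sample. Control rat 20, from the scan that also held LPS rats 1, 3 and 5, is the highest control in each panel. Levels are not comparable between panels.

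Control rat 20 exceeded the mean of the other 3 control samples by 0.90 for Cxcl1 (1.86-fold), 1.65 for Ccl7 (3.14-fold) and 1.48 for Il6 (2.78-fold), where the SD of those 3 samples was 0.57, 0.77 and 0.64. For Il6 the other controls were mostly not well above background, and with such values raised as above the excess was 1.01 (2.01-fold). Rat 20 did not pass Dixon's outlier criterion (0.829 for 4 samples) for Cxcl1 (0.20) or Ccl7 (0.38). Its statistic for Il6, 0.42, rests on control spots not well above background. With only 4 samples, 1 of them a mean of 2 arrays, nothing is read from any of these statistics. Rat 20 was also the highest control sample for 52.1% of the 213 probes called higher in LPS, and for 22.4% of all tested probes. It was the only control array in scan 2. Within that scan, the difference between the LPS samples and rat 20 was 5.95 for Cxcl1, 5.09 for Ccl7 and 5.38 for Il6, that is 61.7-fold, 34.1-fold and 41.7-fold. These values rest on 1 control sample. In the limma fit with the scan as a block, which rests on the same control sample, none of the 3 genes was called. Over 10 separate arrays with the same block all 3 were called. That fit counts the arrays of each combined pair as separate samples, so nothing is read from its calls. The part of the scan in the result was not tested. Without rat 20 the differences were 6.89, 6.92 and 6.94.

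The values of Il6 moved more than those of the chemokines with normexp, which differs from the reported values both in the background correction and in its use of median spot signals. With an offset of 50, which adds 50 to every corrected intensity and so lies above the control intensities of Il6, the difference was 3.24 for Il6, 6.16 for Cxcl1 and 5.92 for Ccl7. With an offset of 1 they were 5.11, 6.60 and 6.37. Each LPS sample stayed above each control sample for all 3 genes with quantile normalisation, with normexp at an offset of 50 and in the processed values of the authors.

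**Figure D4:**
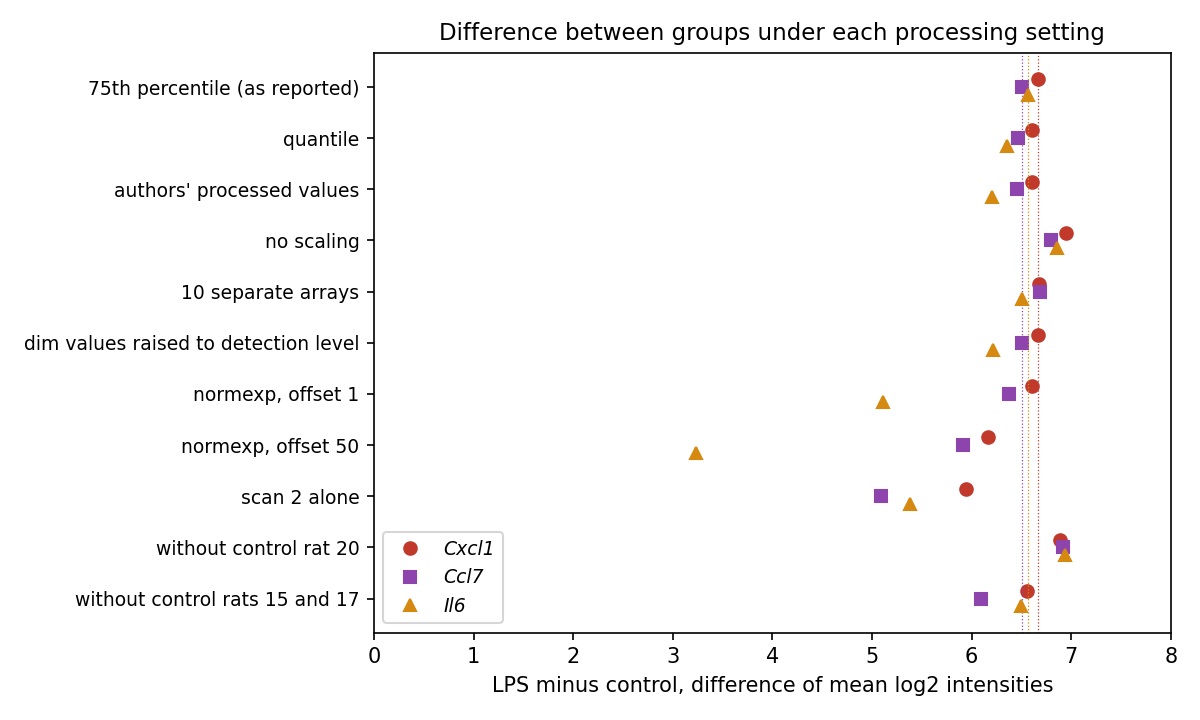
LPS minus control difference of mean log2 intensities for Cxcl1, Ccl7 and Il6 under 11 settings, with dotted lines at the reported values. Il6 falls to 3.24 with normexp and an offset of 50, all 3 genes are lower within scan 2, and the lowest value of Cxcl1 in the plot is 5.95.

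The profiles most like each gene were found by the root mean square difference (RMS) over the 8 samples, after the mean of each probe was subtracted. This measure follows the size of the group difference, from which the genes were chosen, and is a description. Cxcl1 and Il6 were nearest to each other among all tested probes, with an RMS of 0.24 on the log2 scale. Ccl7 was next for both, at 0.48 from Cxcl1 and 0.55 from Il6. The values of Il6 rest on control spots near background. With values not well above background raised as above, Cxcl1 and Il6 were still nearest to each other, at 0.33, but Ccl7 was the third nearest to Il6, at 0.49, and Kng1 was no longer among its 5 nearest. For Ccl7 the nearest probe was ASRN6AP1B105651172V3, which has no gene name here, at 0.47. The third nearest to Cxcl1 was Kng1, the precursor of bradykinin, at 0.70, and Kng1 was the fifth nearest to Il6, at 0.79. C3, the central complement component, and Orm1, an acute-phase glycoprotein, were the fourth and the fifth nearest to Ccl7, at 0.72 and 0.85. Orm1 was farther down the order for Cxcl1, at 0.77, and for Il6, at 0.89. Lcn2, which encodes an acute-phase protein that binds siderophores, was at 0.82 from Cxcl1, 0.95 from Ccl7 and 0.86 from Il6. ASRN6AP1B102444856V3, also unnamed, was the fourth nearest to Cxcl1 and to Il6. With values not well above background raised as above, it was the second nearest to Il6, at 0.48. ASRN6AP1B105651172V3, the third nearest to Il6 at 0.73, was then no longer among its 5 nearest.

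Other genes of the same pathways could be looked up only where a probe has a gene name, which is the case for 20 mRNAs that the study picked from these arrays. Cxcl1 was the only named member of a list of 16 CXC chemokines, Ccl7 of 20 CC chemokines and Il6 of 23 genes of its family and signalling. None of 22 chemokine receptors, 16 other early cytokines or 31 genes of LPS recognition and NF-κB signalling was named. Of 16 acute-phase targets of interleukin-6, C3, Kng1, Lcn2 and Orm1 were named, and all 4 were called higher in LPS (0.632% of all tested probes were), with log2 differences of 5.39, 7.56, 5.56 and 5.72. Because the study chose these probes on the same samples, their direction is not independent evidence and nothing is read from the count.

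Cxcl1 attracts neutrophils. Of 8 neutrophil markers, 2 were named, S100a8 and S100a9, which form the calcium-binding protein calprotectin. Both come from the same list chosen by the study. S100a8 ranged from 4.98 to 6.18 in the LPS samples and from -0.94 to 2.004 in the control samples (log2 level relative to the 75th percentile). S100a9 ranged from 4.51 to 5.48 and from -0.50 to 2.07. Both were called higher in LPS, against 0.632% of all tested probes, and were well above background on all 10 arrays, and their summed intensity relative to the 75th percentile was 54.2 to 116.9 in the LPS samples and 1.23 to 8.22 in the control samples. This sum of 2 probes, each with its own brightness, is no measure of the number of neutrophils. On this scale the highest control sample for both was the mean of rats 15 and 17, and for Cxcl1, Ccl7 and Il6 it was rat 20. The order within the LPS group depended on the scaling, as given above, and is not compared. Of 5 brown adipocyte markers, the 3 named ones had log2 differences of -3.27 for Ucp1, -2.62 for Cox8b and -3.81 for Fabp3, and Ucp1 alone was called lower, against 0.0593% of all tested probes. No marker of monocytes and macrophages, T cells, B cells, endothelial cells, smooth muscle cells, fibroblasts, white adipocytes or hepatocytes was named. The part of these cells in the levels of Cxcl1, Ccl7 and Il6 was not tested.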

How the data were processed

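The authors deposited, per the file headers, the output of Agilent Feature Extraction (version 11.0.1.1). Its spot intensity is corrected for background and is not normalised across arrays. They also deposited a table of log2 values, whose lowest correlation with the log2 scanner intensities was 0.990 and whose column medians were all 5.84. Its 75th percentiles were equal between arrays, and the normalisation method is not given in the sources used here.

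Spots marked as outliers were removed, replicate spots were averaged, and log2 intensities were centred on the 75th percentile of the array. limma (version 3.58.1, R 4.3.3) was run on mRNA and lncRNA probes well above background on at least 5 arrays, with Benjamini-Hochberg adjustment over all of them, after the step was tested on simulated data. Alternatives were other scalings, background corrections and filters, the t-test of the study's methods, the scan as a block, 10 separate arrays and each sample left out. For normexp, median spot signals were used, since mean signals were not analysed here. The supplementary tables of the study named 40 probes. The text names the 3 genes, the 5 probes nearest to each, the nearest named mRNAs and the named members of the gene lists. The genes and lists were chosen with earlier results of these data known, and the settings added after the data were seen are named below. RefSeq sequences are on GRCr8, whereas the file headers name rn4, so no array coordinates were used. The number of arrays limits the precision.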

Additional observations from a re-analysis of the deposited data

How the results depend on the processing

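The differences of Cxcl1, Ccl7 and Il6 stayed above 0 in every setting tried. Nothing is read from this sign, because the genes were chosen for their large increase on these arrays. Leaving out each sample in turn gave 6.42 to 6.89 for Cxcl1, 6.10 to 6.92 for Ccl7 and 6.21 to 6.94 for Il6. Quantile normalisation, the processed values of the authors and 10 separate arrays moved none of them by more than the spread between replicates. The scan as a block, which equals the value within scan 2, gave 5.95, 5.09 and 5.38, and this value rests on the array of control rat 20. Il6 moved to 3.24 with normexp, whose offset of 50 exceeds its control intensities, and to 5.11 with an offset of 1. This second offset, the raised dim values and the fit without scaling (6.95, 6.79 and 6.85, where the median over all probes moved to 0.37) were added after the data were seen.

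The count of probes called higher in LPS, 213, and lower, 20, depended on the samples. It was 559 and 111 with 10 separate arrays, 3 and 3 with the scan as a block, 1621 and 565 with the methods' t-test without adjustment, and 47 and 1 after Benjamini-Hochberg adjustment. Leaving out each sample in turn gave 101 to 298 higher and 4 to 28 lower. The higher count fell to 126 without LPS rat 5, 103 without rat 6 and 101 without rat 7. The lower count fell to 8 without LPS rats 1 and 3 or without rat 5, 7 without rat 6, 4 without rat 7, 11 without control rats 15 and 17 and 13 without control rat 20. The cause of these changes was not tested. Signal over background limits the control values of Il6.
No paired analysis was possible because the LPS and control arrays share no replicate numbers.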
